A study of Mus musculus with 6 samples.

Results

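The genes described here are 10 lymphoid transcription factor genes, taken by name: the Ikaros family genes Ikzf1, Ikzf2 and Ikzf3, the RUNX genes Runx1, Runx2 and Runx3, and Ets1, Foxo1, Bach2 and Nfil3. They are 10 of the 56953 genes in the deposited tables, and all 10 passed the filter on low counts that left 15591 genes for testing. The libraries came from splenic NK (natural killer) cells of WT mice, whose strain and age the labels leave out. The cells were kept for 7 days in medium with recombinant human interleukin-2 (1700 U/ml) and 5% CO2. Hypoxia cultures were at 1% oxygen and normoxia cultures at 20% oxygen, with 3 libraries each that the labels call biological replicates. It is not stated if these replicates are different animals or parallel cultures, and p-values therefore cover only the spread among these 6 libraries.

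NK cells are innate lymphocytes that kill infected or malignant cells, and their identity rests on a small set of DNA-binding proteins. Ikaros proteins are zinc finger factors that recruit chromatin remodellers and corepressors to lymphoid genes. RUNX proteins bind DNA together with the partner CBFB and set cytotoxic and tissue-residency genes in lymphocytes. ETS1 and NFIL3 are needed for NK cell development in mice. FOXO1 is a forkhead factor that leaves the nucleus when phosphorylated by AKT, and it drives homing and quiescence genes in lymphocytes, while BACH2 represses effector genes in T cells.

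Promoter windows from RefSeq (GRCm38.p6, 250 bases before to 50 bases after a start site) were found for 7 of the 10 genes, as 10 windows. The windows of the 3 RUNX genes are shown because they share a run of letters that the choice of genes did not use. In the window of Runx2 and in the upstream of the 2 windows of Runx1 and of Runx3, the RUNX motif TGTGGT, read on the opposite strand as ACCACA, stands in a tandem pair with the same spacing. The stretches below are read on the strand of each gene, and capitals mark the RUNX motif.
Runx1, chr16:92826025-92826054, minus strand: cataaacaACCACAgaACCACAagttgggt
Runx2, chr17:44814583-44814612, minus strand: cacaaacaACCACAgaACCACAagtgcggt
Runx3, chr4:135120503-135120532, plus strand: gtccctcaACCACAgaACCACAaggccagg
The pair lies 28 and 36 bases after the start site in Runx1, 23 and 31 bases after it in Runx2, and 134 and 126 bases before it in Runx3. A TGTGGT on either strand was present in 16.8% of the 32851 windows of the table, and 1.81% held 2 or more. The 14 letters ACCACAGAACCACA were present on either strand in 4 windows (0.0122%), those of the 3 RUNX genes and of Gm16225, whose window overlaps that of Runx3 on the other strand. A match describes these letters and does not show binding.

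The bases upstream of Foxo1, the member with the largest rise, are shown next, with the HIF core motif in capitals.
Foxo1, chr3:52268087-52268336, plus strand: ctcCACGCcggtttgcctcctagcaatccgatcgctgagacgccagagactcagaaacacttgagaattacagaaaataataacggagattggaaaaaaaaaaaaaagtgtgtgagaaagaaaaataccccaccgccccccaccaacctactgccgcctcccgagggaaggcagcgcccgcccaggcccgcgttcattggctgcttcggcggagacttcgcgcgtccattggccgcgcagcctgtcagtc
The core motif of HIF, the factor stabilised at low oxygen, was searched as ACGTG and GCGTG on both strands. The Foxo1 window held 1 GCGTG, 247 bases before the start site, and no ACGTG. These were present in 32.4% (GCGTG) and 19.6% (ACGTG) of all windows, and in 3 and 2 of the 10 windows of the members. The ETS motif CCGGAA was in 2 member windows and in 14.9% of all windows, and the forkhead motif TGTTTAC in 0 and 3.65%.

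Of the 10 genes, Foxo1, Ikzf3 and Ets1 rose and Bach2 fell at 1% oxygen, while the other 6 did not pass the test. The rises lay between 1.27-fold and 1.59-fold, and Bach2 stood at 0.735 of its normoxia level. The test was edgeR's quasi-likelihood test over all 15591 genes adjusted by Benjamini-Hochberg, with calls under 0.05, and it called 20.9% of all genes, 11.2% as higher and 9.72% as lower. It held no term for the replicate number that the groups share. With such a term 5 of the 10 genes were called higher and 3 lower, and 39.2% of all genes were called. The median log2 fold change of the 10 genes was 0.06, against -0.0052 for all tested genes. Counts of called genes in the lists of related genes below stand beside the 20.9% of all genes. The members and lists were chosen with earlier results of these data known, so such counts are a description only. Libraries held 55104810 to 55794698 estimated counts, so that 1 count was worth about 0.018 CPM, the count scaled to a fixed library total. Levels below are CPM scaled with TMM (trimmed mean of M-values), as mean ± SD over n = 3 libraries where a mean is given. In bulk RNA fewer cells of a type and less RNA per cell cannot be told apart.

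**Figure D1:**
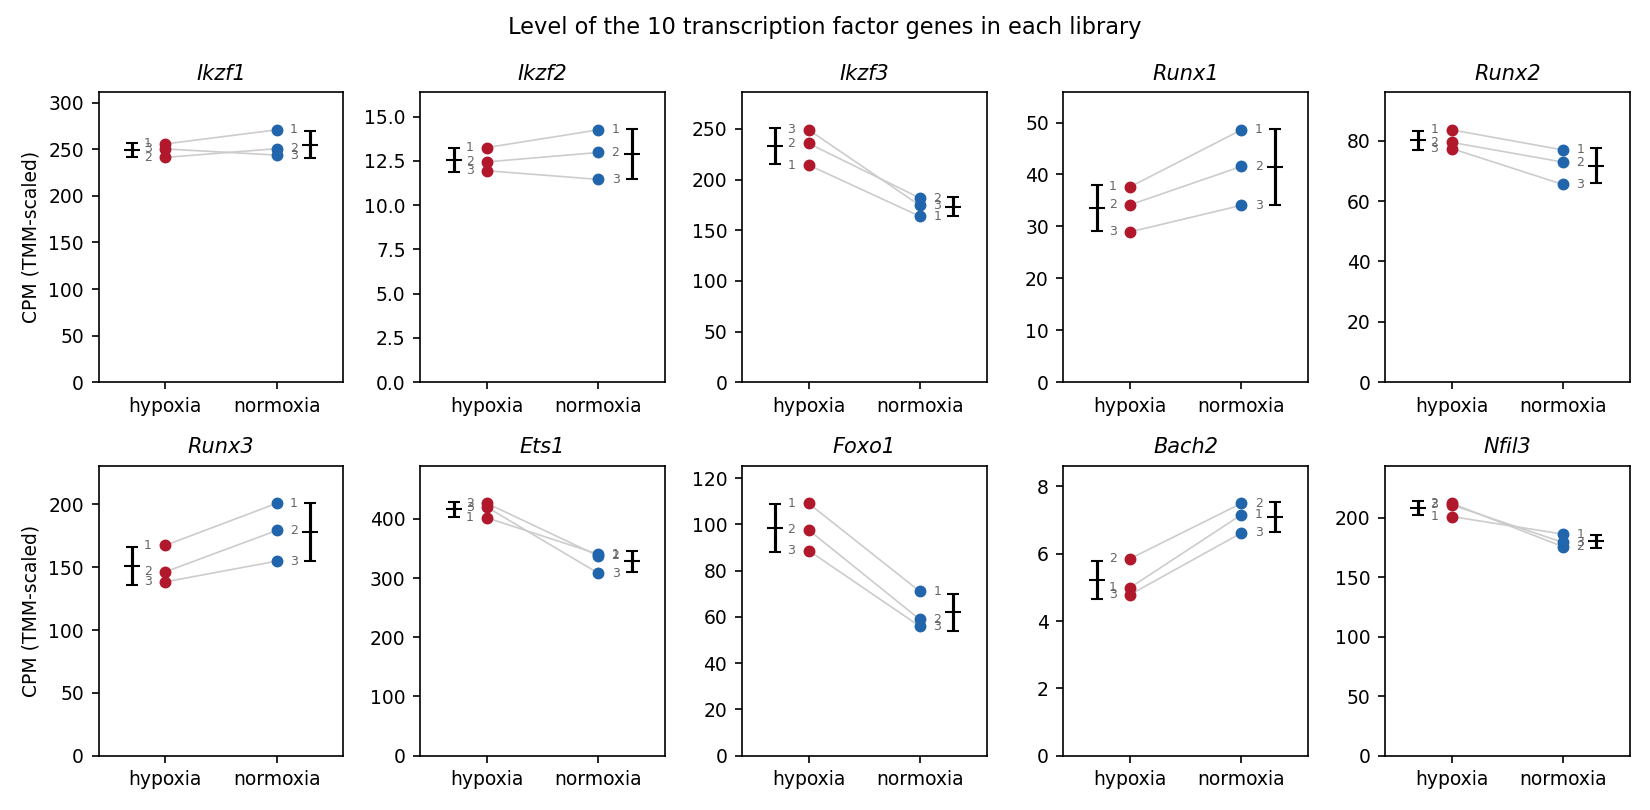
Level of each of the 10 genes in CPM (vertical axis, from 0) in the 3 hypoxia (left, red) and 3 normoxia (right, blue) libraries. Small digits give the replicate number, grey lines join libraries of the same number, and black bars give the mean and SD. Foxo1, Ikzf3 and Ets1 stand higher in every hypoxia library than in any normoxia library, and Bach2 lower.

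**Figure D2:**
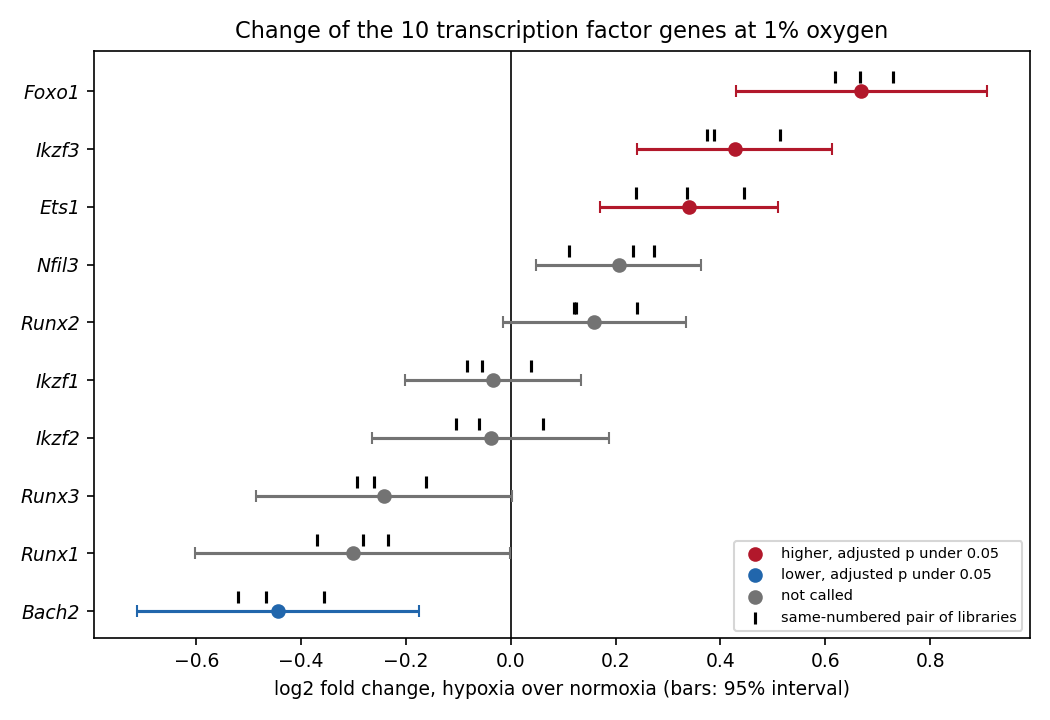
Log2 fold change of each gene, hypoxia over normoxia (horizontal axis), as points with 95% intervals from the edgeR fit, coloured by the call. Black ticks give the difference within each of the 3 same-numbered pairs of libraries. Foxo1 lies highest at 0.67 and Bach2 lowest at -0.44, and the ticks of Runx1, Runx2, Runx3 and Nfil3 all fall on a single side of 0.

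Foxo1 (ENSMUSG00000044167) changed most. Its levels were 109, 97.6 and 88.7 CPM in the hypoxia libraries 1 to 3, against 71.0, 58.9 and 55.9 CPM in the normoxia libraries. The groups did not overlap, and replicate 1 was the highest library in both. The log2 fold change was 0.67 (SE 0.11, edgeR adjusted p = 0.0022), with a 95% interval of 1.35-fold to 1.88-fold. Within the same-numbered pairs the log2 differences were 0.62, 0.73 and 0.67, so all pairs rose by nearly the same amount. The call was kept in all 14 alternative settings, with adjusted p between 5.8e-08 and 0.015.

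Ikzf3 (ENSMUSG00000018168) encodes Aiolos, which acts late in NK cell maturation in mice. It stood at 214, 236 and 249 CPM in hypoxia, against 164, 182 and 174 CPM in normoxia, without overlap. Its log2 fold change was 0.43 (SE 0.08, edgeR adjusted p = 0.0057), and the call was kept in all 14 alternative settings. Ikzf1 (ENSMUSG00000018654), the gene of Ikaros, stood at 256, 241 and 250 CPM in hypoxia and 271, 251 and 244 CPM in normoxia. These ranges overlap, and the 95% interval of its change ran from 0.870-fold to 1.10-fold (edgeR adjusted p = 0.80). Ikzf2 (ENSMUSG00000025997), the gene of Helios, was far lower, at 12.6 ± 0.660 CPM in hypoxia, against 12.9 ± 1.40 CPM in normoxia (SD, n = 3 libraries each). Its interval ran from 0.832-fold to 1.14-fold. Neither Ikzf1 nor Ikzf2 passed in any of the 14 alternative settings.

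Within the Ikaros trio the mRNA balance moved towards Ikzf3, which rose while Ikzf1 was not called. The log2 ratio of Ikzf3 to Ikzf1 was 0.46 higher in hypoxia than in normoxia, by 0.47, 0.43 and 0.48 in the same-numbered pairs, and the groups did not overlap. A two-sided exact permutation test gave p = 0.10, the smallest value that 3 against 3 libraries allow. In CPM per kb, using the median length of each gene's protein-coding transcripts in GENCODE M21, Ikzf3 made up 23.1% ± 1.67 of the trio's mRNA in hypoxia and 17.9% ± 1.48 in normoxia (SD, n = 3 each). Ikzf1 made up 73.59% in hypoxia and 78.52% in normoxia, and Ikzf2 3.33% ± 0.200 and 3.56% ± 0.248. These shares depend on the length chosen: with the longest transcript of each gene, Ikzf3 held 56.2% in hypoxia and 48.3% in normoxia. The shift has the same sign with each length.

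**Figure D3:**
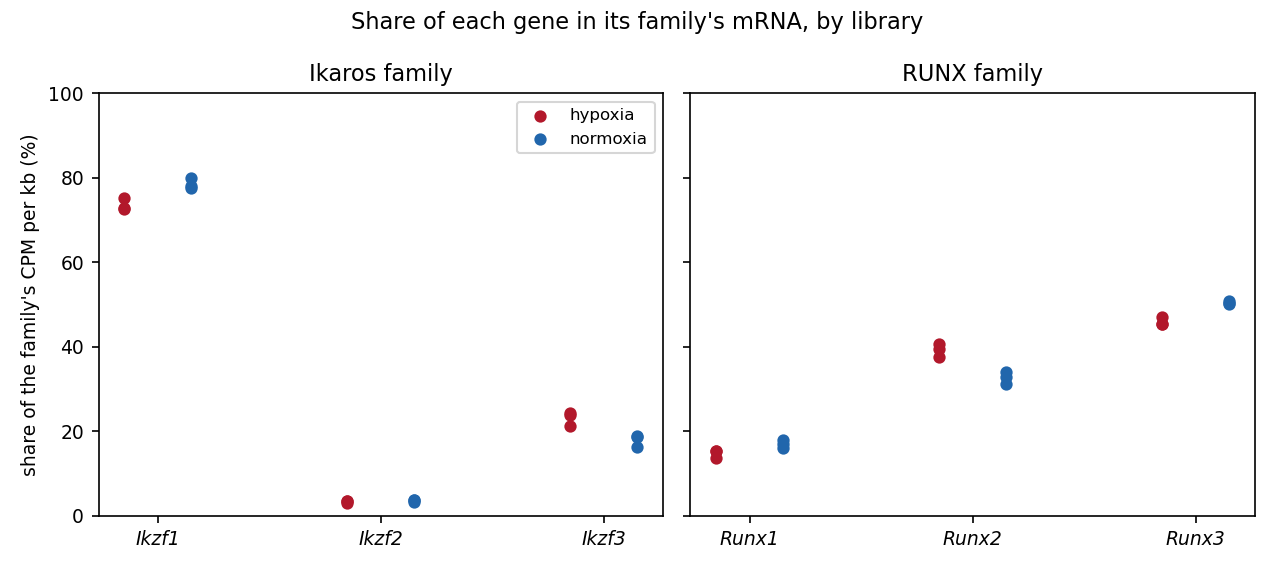
Share of each gene in its family's CPM per kb of median transcript length (percent, vertical axis) for the Ikaros (left) and RUNX (right) families, as 1 point per library, hypoxia in red and normoxia in blue. The points of Ikzf1, Ikzf3, Runx1, Runx2 and Runx3 do not overlap between groups, and those of Ikzf2 do.

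Ikaros proteins work through the NuRD and Sin3 complexes and CtBP, and of 17 genes of these corepressors 0 rose and 2 fell. That is 11.8% of the list, against 20.9% of all tested genes. Mta1, a NuRD subunit, fell to 112 ± 1.86 CPM in hypoxia, against 134 ± 1.24 CPM in normoxia (log2 fold change -0.26, SE 0.06, edgeR adjusted p = 0.018). Ctbp2, a CtBP gene, fell to 16.2 ± 1.67 CPM, against 22.9 ± 3.06 CPM (-0.50, SE 0.11, edgeR adjusted p = 0.013). Leaving out hypoxia library 2 (edgeR adjusted p = 0.11), hypoxia library 3 (0.069) or normoxia library 2 (0.061), or scaling by library size alone (0.076), ended the Mta1 call. Leaving out hypoxia library 2 ended the Ctbp2 call (0.066), and then 0 of the 17 fell. In the other 3 of these settings 1 fell, and scaling by library size alone called 3 higher. The replicate block called 3 higher and 5 lower, and 1 rose when both replicate 1 libraries were left out. Of 5 genes of the cereblon ubiquitin ligase 0 rose and 1 fell, which is 20% of the list. Through this ligase thalidomide analogues mark IKZF1 and IKZF3 for degradation in human cells. The gene that fell was Cul4b (-0.30, SE 0.08, edgeR adjusted p = 0.022). It was not called when hypoxia library 1 (0.077), hypoxia library 2 (0.12) or both replicate 1 libraries (0.075) were left out, or when library size alone set the scale (0.053). The relatives Ikzf4 and Ikzf5 were not called. Ikzf5 had 35.3 ± 1.00 CPM in hypoxia, against 38.4 ± 0.677 CPM in normoxia (edgeR adjusted p = 0.24).

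No RUNX gene passed the test, while in every same-numbered pair Runx2 was higher and Runx1 and Runx3 lower in hypoxia. Runx3 (ENSMUSG00000070691), the RUNX gene of cytotoxic lymphocytes, stood at 168, 146 and 138 CPM in hypoxia, against 201, 179 and 155 CPM in normoxia. Runx1 (ENSMUSG00000022952), a factor of blood stem cells and early lymphoid cells, stood at 37.6, 34.2 and 28.9 CPM in hypoxia, against 48.6, 41.6 and 34.1 CPM in normoxia. Runx2 (ENSMUSG00000039153), best known as the bone cell RUNX factor, stood at 83.6, 79.5 and 77.4 CPM in hypoxia, against 77.0, 72.9 and 65.5 CPM in normoxia. The groups overlapped for Runx1 and Runx3 and only just separated for Runx2. In all 3 genes and both groups replicate 1 was the highest library and replicate 3 the lowest. Their edgeR adjusted p were 0.15 for Runx1, 0.19 for Runx2 and 0.15 for Runx3, with log2 fold changes of -0.30, 0.16 and -0.24.

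The replicate number is shared between the groups, and libraries of the same number deviated together. When the fit held a term for the replicate number (the replicate block), Runx1 (edgeR adjusted p = 0.00098) and Runx3 (0.0028) were called lower and Runx2 higher (0.021). Runx1 was lower in 3 of 3 same-numbered pairs, by -0.37, -0.28 and -0.23, and Runx3 by -0.26, -0.29 and -0.16. Runx2 was higher in 3 of 3, by 0.12, 0.12 and 0.24. The replicate block called 39.2% of all genes, 19.2% as higher and 20.0% as lower, and 63.4% of all genes had the same sign in all 3 pairs. With it 5 of the 10 members rose and 3 fell, and Ikzf1 and Ikzf2 were the 2 that did not pass. Runx1 also passed without normoxia replicate 3 (0.039) and with no filter on low counts (0.027), and Runx2 with scaling by library size alone (0.046).

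The log2 ratio of Runx2 to Runx3 was 0.40 higher in hypoxia, by 0.38, 0.42 and 0.40 in the pairs, without overlap between groups (two-sided exact permutation p = 0.10, the smallest possible). The ratio of Runx3 to Runx1 differed by 0.06 between groups that overlapped (exact permutation p = 0.50). Per kb of median transcript length, Runx2 made up 39.3% ± 1.56 of the RUNX mRNA in hypoxia and 32.7% ± 1.35 in normoxia. Runx3 made up 45.95% ± 0.973 in hypoxia and 50.5% ± 0.424 in normoxia, and Runx1 14.8% ± 0.884 and 16.9% ± 0.940 (SD, n = 3 each). With the longest transcripts Runx3 held 68.1% in hypoxia and 71.6% in normoxia, and the shares of Runx1 then overlapped between the groups, at 10.04% ± 0.561 in hypoxia and 10.97% ± 0.559 in normoxia (exact permutation p = 0.20). Cbfb, the gene of the shared DNA-binding partner, had 236 ± 17.3 CPM in hypoxia, against 223 ± 20.7 CPM in normoxia, and was not called (edgeR adjusted p = 0.58).

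Other RUNX cofactors and targets changed in both directions. Of 6 cofactor genes 1 rose and 1 fell. Cbfa2t3, which encodes the corepressor ETO2, fell to 6.17 ± 0.388 CPM in hypoxia, against 12.3 ± 0.988 CPM in normoxia (log2 fold change -0.99, SE 0.10, edgeR adjusted p = 0.00020). Tle1, a Groucho corepressor gene, rose to 1.67 ± 0.169 CPM, against 0.756 ± 0.0614 CPM (1.14, SE 0.19, edgeR adjusted p = 0.0026). Of 13 listed targets of RUNX factors 12 were tested, 3 rose and 3 fell. Itgae, the CD103 integrin gene that RUNX3 induces in CD8 T cells, had 19.4, 17.2 and 22.9 CPM in hypoxia, against 1.09, 0.688 and 0.841 CPM in normoxia (4.51, SE 0.18, edgeR adjusted p = 3.2e-06). Cd4, which RUNX factors silence in CD8 T cells, also rose, as did Ccl5. Cd4 was low, at 0.700 ± 0.176 CPM in hypoxia, against 0.217 ± 0.107 CPM in normoxia. The stricter filter on low counts left Cd4 out, and 2 listed targets then rose. Eomes, a T-box factor gene, fell to 201 ± 25.4 CPM in hypoxia, against 312 ± 28.5 CPM in normoxia (-0.63, SE 0.11, edgeR adjusted p = 0.0028). The integrin gene Itgal and the cytokine gene Csf2 fell too. With the replicate block or the DESeq2 Wald test 5 of the 12 fell.

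**Figure D4:**
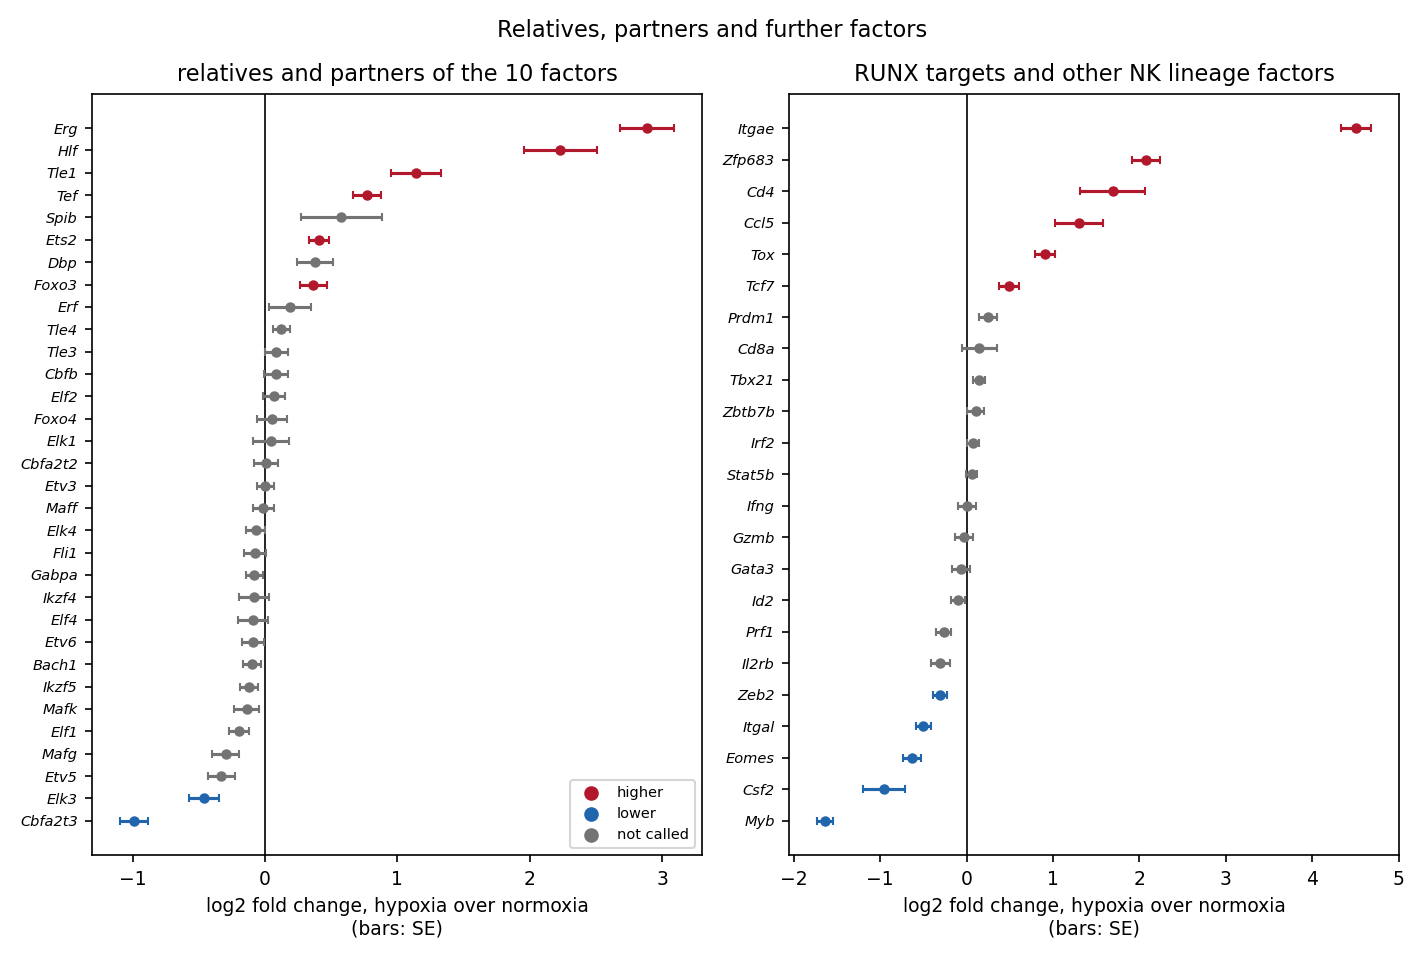
Log2 fold change, hypoxia over normoxia, with SE for relatives and partners of the 10 factors (left) and for RUNX targets and other NK lineage factors (right), coloured by the edgeR call. Erg and Hlf are highest on the left at 2.88 and 2.23, Cbfa2t3 is lowest at -0.99, and Itgae and Myb are the ends on the right at 4.51 and -1.64.

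Ets1 (ENSMUSG00000032035) had the highest CPM of the 10 genes. It stood at 402, 426 and 420 CPM in hypoxia, against 340.3, 337.5 and 308.2 CPM in normoxia, without overlap. Its log2 fold change was 0.34 (SE 0.08, edgeR adjusted p = 0.011), with pair differences of 0.24, 0.34 and 0.45. The call was kept in 13 of 14 alternative settings and missed the threshold without hypoxia replicate 2 (0.052). The log2 ratio of Ets1 to its relative Fli1, another ETS gene of lymphocytes, was 0.41 higher in hypoxia without overlap (exact permutation p = 0.10, the smallest possible). Fli1 itself had 116 ± 7.02 CPM in hypoxia, against 122 ± 9.99 CPM in normoxia (edgeR adjusted p = 0.59).

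Among 16 other ETS family genes 15 were tested, of which 2 rose and 1 fell. That is 20% of those tested, against 20.9% of all tested genes. Erg, an ETS gene of blood stem cells and endothelium, rose most, with 4.70, 5.21 and 5.59 CPM in hypoxia, against 0.933, 0.543 and 0.622 CPM in normoxia (log2 fold change 2.88, SE 0.21, edgeR adjusted p = 2.6e-05). Ets2, the closest relative of Ets1, rose to 20.6 ± 0.789 CPM, against 15.6 ± 0.578 CPM (0.41, SE 0.08, edgeR adjusted p = 0.0051). Both calls were kept in all 14 alternative settings. Elk3 fell (-0.46, SE 0.11, edgeR adjusted p = 0.017). Of the 15, 0 fell when hypoxia library 2 or 3 was left out, 2 when hypoxia library 1 or normoxia library 3 was, and 3 with the replicate block or the DESeq2 Wald test. Spi1, the myeloid ETS gene of PU.1, had at most 5 counts in any library and was not tested.

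FOXO1 drives homing receptor and quiescence genes in lymphocytes, and of 22 listed targets 7 rose and 2 fell. The 7 were Il7r, S1pr1, Klf2, Ccr7, Fbxo32, Tcf7 and Cited2, and the 2 were Irs2 and Insr. Il7r, the interleukin-7 receptor gene, had 2.12, 3.13 and 1.89 CPM in hypoxia, against 0.343, 0.489 and 0.274 CPM in normoxia (log2 fold change 2.68, SE 0.29, edgeR adjusted p = 0.00023). Klf2, a Krüppel-like factor gene of naive and circulating lymphocytes, had 19.9, 22.1 and 19.1 CPM in hypoxia, against 10.3, 9.78 and 9.52 CPM in normoxia (1.05, SE 0.09, edgeR adjusted p = 5.6e-05). Neither gene's groups overlapped, and both calls were kept in all 14 alternative settings. S1pr1, the receptor gene for leaving lymphoid tissue, rose to 4.01 ± 0.927 CPM in hypoxia, against 0.999 ± 0.272 CPM in normoxia. Ccr7, the lymph node homing receptor gene, rose to 5.91 ± 2.29 CPM, against 3.22 ± 0.346 CPM.

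The median log2 fold change of the FOXO1 targets was 0.08, with members from -0.79 to 2.68, and 40.9% of the list was called in either direction, against 20.9% of all genes. The list was chosen with earlier results of these data known, so the excess over all genes is a description only. The groups did not overlap for 11 of the 22, and 13 were not called. Members that rose numbered 5 to 8 in the alternative settings. Those that fell numbered 0 without hypoxia replicates 2 or 3 and with scaling by library size alone, 1 without hypoxia replicate 1 or normoxia replicate 2, and 4 with the replicate block. Tbx21, the T-bet gene that FOXO1 represses in mouse NK cells, had 55.1 ± 0.808 CPM in hypoxia, against 50.1 ± 2.72 CPM in normoxia (edgeR adjusted p = 0.19). The replicate block (0.041) and scaling by library size alone (0.036) called it higher.

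**Figure D5:**
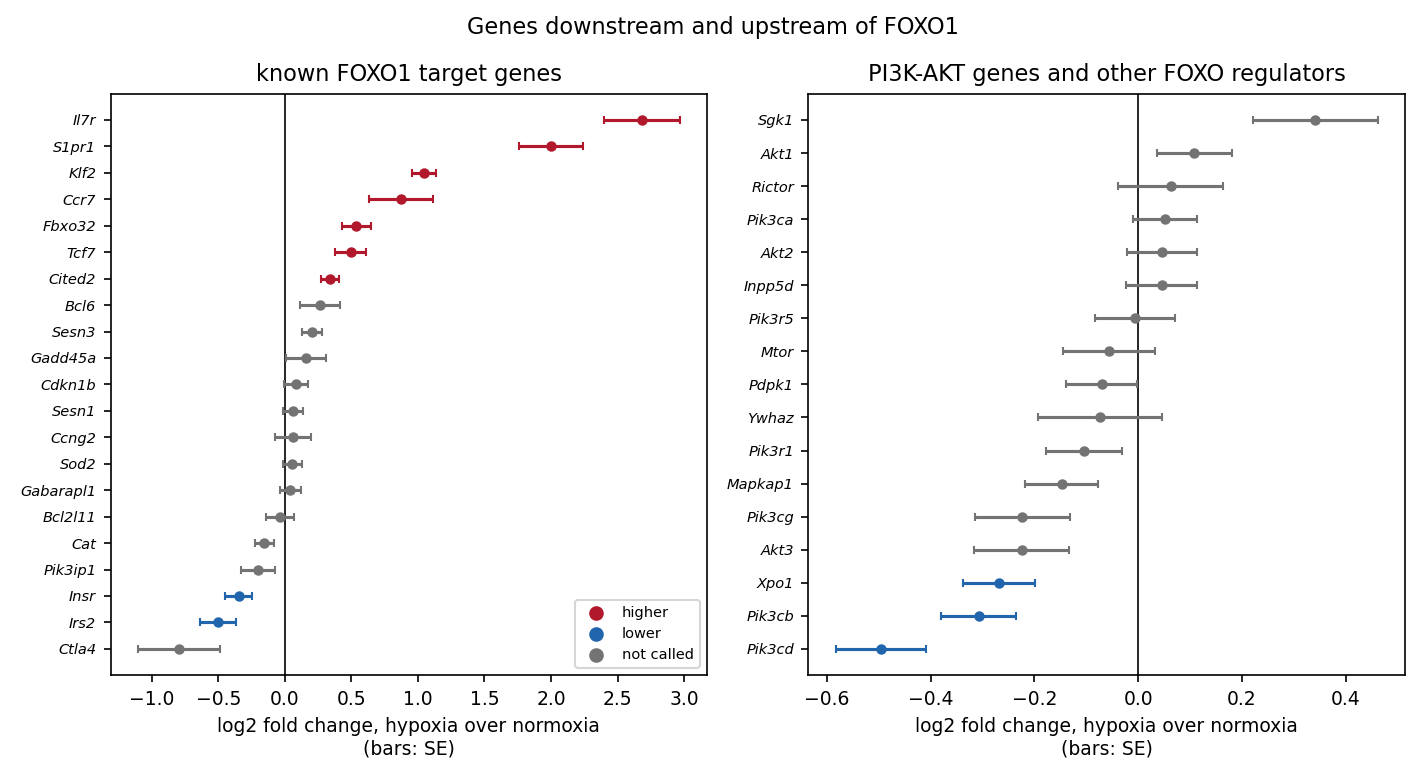
Log2 fold change, hypoxia over normoxia, with SE for known FOXO1 target genes (left) and PI3K-AKT genes and other regulators of FOXO proteins (right), all but 1 gene of each list, coloured by the edgeR call. Il7r, S1pr1 and Klf2 lead the left panel at 2.68, 2.00 and 1.05, and Pik3cd is the lowest of the right panel at -0.50.

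Of 18 genes upstream of FOXO proteins 0 rose and 3 fell, which is 16.7% of the list, against 20.9% of all tested genes. Pik3cd, the catalytic PI3K subunit gene of leukocytes, had 488, 536 and 547 CPM in hypoxia, against 676, 789 and 751 CPM in normoxia (log2 fold change -0.50, SE 0.09, edgeR adjusted p = 0.0035). Pik3cb, another catalytic subunit gene, fell to 18.0 ± 0.342 CPM, against 22.3 ± 0.692 CPM (-0.31, SE 0.07, edgeR adjusted p = 0.015), and Xpo1, the nuclear exporter gene, also fell. The Pik3cd call was kept in all 14 alternative settings. Pik3cb was not called when hypoxia library 2 (0.064) or normoxia library 2 (0.053) was left out or when library size alone set the scale (0.059), and in each of these 3 settings 1 of the 18 fell. The replicate block called 6 lower and 1 higher. The 1 higher was Sgk1, which was higher in 3 of 3 same-numbered pairs (log2 fold change 0.33, edgeR adjusted p = 0.0012 with the block). Of the 18, 1 also rose when hypoxia library 1 or both replicate 1 libraries were left out, with scaling by library size alone, with no filter on low counts and with the DESeq2 Wald test. The AKT genes and Pdpk1 were not called.

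Foxo3, the relative of Foxo1 with overlapping targets, rose less. It had 87.0, 86.9 and 79.1 CPM in hypoxia, against 75.1, 65.3 and 55.96 CPM in normoxia (log2 fold change 0.37, SE 0.10, edgeR adjusted p = 0.033). The ratio of Foxo1 to Foxo3 was 0.30 higher in hypoxia on the log2 scale, without overlap (exact permutation p = 0.10, the smallest possible). Foxo3 was not called when hypoxia library 1 (0.079), hypoxia library 2 (0.089), normoxia library 2 (0.098) or normoxia library 3 (0.086) was left out.

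Bach2 (ENSMUSG00000040270) was the lowest of the 10 genes and fell. It had 4.99, 5.85 and 4.79 CPM in hypoxia, against 7.16, 7.50 and 6.62 CPM in normoxia, without overlap. Its log2 fold change was -0.44 (SE 0.12, edgeR adjusted p = 0.027), with pair differences of -0.52, -0.36 and -0.47. The call was kept in 9 of 14 alternative settings and ended when hypoxia library 1 (0.088), hypoxia library 3 (0.084), normoxia library 2 (0.105) or both replicate 1 libraries (0.090) were left out, or when library size alone set the scale (0.074). Bach1, the widely expressed relative that represses heme and antioxidant genes, had 26.2 ± 0.455 CPM in hypoxia and 28.0 ± 0.665 CPM in normoxia and was not called (edgeR adjusted p = 0.36). The log2 ratio of Bach2 to Bach1 was -0.35 in hypoxia relative to normoxia, without overlap (exact permutation p = 0.10, the smallest possible).

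Of 10 genes that BACH factors are known to repress, 1 rose and 2 fell. Gclc, the catalytic subunit gene of glutathione synthesis, rose to 40.0 ± 1.02 CPM in hypoxia, against 30.02 ± 3.05 CPM in normoxia (log2 fold change 0.41, SE 0.09, edgeR adjusted p = 0.0080). Slc7a11, the cystine transporter gene, fell to 0.239 ± 0.117 CPM, against 0.942 ± 0.389 CPM (-1.96, SE 0.41, edgeR adjusted p = 0.0087), and Gclm also fell. Prdm1, the Blimp-1 gene and a BACH2 target in B and T cells, had 87.8 ± 8.48 CPM in hypoxia, against 74.2 ± 9.48 CPM in normoxia (0.24, SE 0.10, edgeR adjusted p = 0.13). The replicate block (0.0017) called it higher, as did leaving out normoxia library 1 (0.019) or both replicate 1 libraries (0.027) and scaling by library size alone (0.040). With the replicate block 5 members of the list were higher and 3 lower. Higher members numbered 4 without both replicate 1 libraries and 3 without normoxia replicate 1. The list had 1 lower when any single library other than normoxia library 2 was left out.

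Nfil3 (ENSMUSG00000056749) stood at 201, 212 and 211 CPM in hypoxia, against 186, 176 and 179 CPM in normoxia. The groups did not overlap and all 3 pairs were higher in hypoxia, by 0.11, 0.27 and 0.23 on the log2 scale. Its log2 fold change of 0.21 (SE 0.07) missed the threshold (edgeR adjusted p = 0.065), and the replicate block called it (0.0085). It also passed when normoxia library 1 (0.0496) or both replicate 1 libraries (0.029) were left out, when library size alone set the scale (0.013), with the stricter filter (0.037) and with the DESeq2 Wald test (0.030). NFIL3 competes for DNA sites with the PAR-bZIP factors DBP, TEF and HLF, and of these 3 genes 2 rose. Tef had 70.3, 61.8 and 61.4 CPM in hypoxia, against 42.6, 38.5 and 32.5 CPM in normoxia (0.77, SE 0.10, edgeR adjusted p = 0.00084). Hlf had 1.23, 1.33 and 1.01 CPM in hypoxia, against 0.209, 0.344 and 0.201 CPM in normoxia (2.23, SE 0.27, edgeR adjusted p = 0.00048). Both calls were kept in all 14 alternative settings. Dbp (0.38, SE 0.135, edgeR adjusted p = 0.075) was not called, though its groups did not overlap. With the replicate block (0.030 for Dbp) or scaling by library size alone all 3 genes were higher.

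Of the 10 genes 6 had no overlap between hypoxia and normoxia libraries, which held for 38.3% of all tested genes. Compared per length, the genes spanned a wide range. With median transcript lengths Ets1 had 204 ± 6.22 CPM per kb in hypoxia and 161 ± 8.71 in normoxia, and Ikzf1 203 ± 5.99 in hypoxia and 208 ± 11.5 in normoxia. With these lengths the difference between Ets1 and Ikzf1 was within their spread in hypoxia, and Ikzf1 was higher beyond it in normoxia. Nfil3 followed at 103 ± 2.99 CPM per kb in hypoxia and 89.1 ± 2.66 in normoxia. Ikzf3 (63.7 ± 4.78 in hypoxia, 47.4 ± 2.47 in normoxia) stood above Runx3 (52.5 ± 5.25 in hypoxia) at 1% oxygen and below it (62.2 ± 8.02 in normoxia) at 20%. Runx2, Runx1, Foxo1 and Ikzf2 came next, of which Foxo1 (11.4 ± 1.18 in hypoxia, 7.15 ± 0.923 in normoxia) and Ikzf2 (9.20 ± 0.484 and 9.45 ± 1.03) changed places between the groups with these lengths. Bach2 was last at 0.614 ± 0.0667 CPM per kb in hypoxia and 0.835 ± 0.0522 in normoxia. Most of this order depends on the length chosen. With the longest transcripts Nfil3 was first in both groups and Bach2 again last, and none of the 3 changes of order above was present. Ets1 then stood above Ikzf1 in both groups, at 81.9 ± 2.50 CPM per kb against 48.3 ± 1.42 in hypoxia and 64.7 ± 3.50 against 49.4 ± 2.73 in normoxia. Ikzf3 stood above Runx3 in both, at 63.7 against 38.8 in hypoxia and, within their spread, 47.4 against 45.9 ± 5.92 in normoxia. Foxo1 stood above Ikzf2 in both, at 11.4 against 1.35 in hypoxia and 7.15 against 1.39 in normoxia. A different change of order appeared with the longest transcripts. Ikzf3 stood above Ikzf1 in hypoxia (63.7 ± 4.78 against 48.3 ± 1.42) and, within their spread, below it in normoxia (47.4 ± 2.47 against 49.4 ± 2.73).

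The NK cell label fits the markers, of which Ncr1, Klrb1c, Il2rb and 10 others were all tested. They summed to 26900 to 31000 CPM in hypoxia and 24500 to 27900 CPM in normoxia. Most of this came from Gzma (9931 CPM in hypoxia, 5684 in normoxia) and Gzmb (11740 and 11990). Ncr1 (122.2 and 143.5), Klrb1c (478.4 and 458.8) and Il2rb (2730 and 3368) gave far less. Gzma was called higher and Eomes lower. Without overlap but not called, Ncr1, Klrk1 and Prf1 were lower and Tbx21 higher. Several of the 10 factors are also expressed by T and B cells. The 12 T cell markers summed to 691 to 741 CPM in hypoxia and 701 to 744 CPM in normoxia, with Cd3d, Cd3g and Cd4 higher and 0 lower. Cd3d stood at 42.15 CPM in hypoxia and 20.11 in normoxia, and Cd3g at 102.8 and 56.24. Cd4 was low, at 0.700 CPM in hypoxia and 0.217 in normoxia. Trbc1 (293 CPM in hypoxia, 333.5 in normoxia) and Trbc2 (104 and 122) were lower without overlap but not called. The replicate block called 4 of the 12 higher and 3, among them Trbc1 and Trbc2, lower. Of 10 B cell markers 2 were tested and summed levels were 73.1 to 78.1 CPM in hypoxia and 54.9 to 70.4 CPM in normoxia, nearly all from Ighm, with Cd79b higher, while Ms4a1 and Pax5 had at most 3 counts in any library. Myeloid markers, mostly Itgax, which mouse NK cells also express, and Cd68, summed to 362 to 436 CPM in hypoxia and 181 to 214 CPM in normoxia. Of 10 listed 5 were tested, with 3 higher and 1 lower. Lyz2, at 0 in normoxia, passed the filter on low counts only through the hypoxia libraries. Basophil and mast cell markers, mostly Kit and Mcpt8, summed to 382 to 437 CPM in hypoxia and 235 to 258 CPM in normoxia. Of 7 listed 3 were tested, and all 3 were higher. Fcer1a and Ms4a2 had at most 1 count in any library. Neutrophil markers summed to 1.35 to 2.68 CPM in hypoxia and 0.127 to 0.324 CPM in normoxia. Of 8 listed 3 were tested, S100a8, S100a9 and Ngp, and all 3 were higher. At or near 0 in normoxia, these 3 passed the filter only through the hypoxia libraries, so their calls are a description only. Over all tested genes 20.9% were called. Erythroid and stromal markers, mostly Pecam1, summed to 192 to 210 CPM in hypoxia and 234 to 281 CPM in normoxia. Their part in the changes of the 10 genes was not tested.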

How the data were processed

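Strand-specific mRNA libraries of 6 samples were sequenced, per the labels' protocols. Trim Galore 0.6.4, kallisto 0.4.6, edgeR 3.17 and the build GRCm39 are named in the submitters' processing notes. Sources used here do not name the annotation release or the strand setting. The authors deposited estimated counts per Ensembl gene, of which 69.4% were whole within a tolerance of 1e-06, and log2 CPM values, which equal those edgeR computes from the deposited counts (prior count 2, largest difference 0). Only the estimated counts were tested. Kallisto divides reads between similar transcripts, so paralogs may share counts.

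Estimated counts were rounded and filtered with filterByExpr (minimum count 10, minimum total 15). They were scaled with TMM and tested with edgeR 4.0.16 (quasi-likelihood, no covariates, Benjamini-Hochberg over all genes). SE was obtained by dividing the size of the log2 fold change by the root of F, and intervals are 95%. DESeq2 1.42.0 and limma 3.58.1 (voom) were alternatives. Symbols, for 52029 IDs, and transcript lengths came from GENCODE M21 and promoters from RefSeq, both of an earlier build than the authors' build. The fit was tested on simulated data.

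The members and lists were chosen with earlier results of these data known. Named were the 10 members, up to 2 called genes with the smallest p per list, and Foxo3, Fli1, Cbfb, Bach1, Ikzf5, Il7r, Klf2, Itgae, Prdm1, Id2, Tbx21 and Eomes; 1 further gene of this rule is not reported here. The 3 genes most correlated with the members that changed most were also named. Others were chosen after their values were seen. Across genes, libraries sharing a number departed from the means of their groups with correlations of 0.47, 0.33 and 0.30. The replicate numbers in the labels were therefore taken to pair the libraries in the pair differences and the replicate block. The main test and the exact permutation tests did not use this pairing. Libraries of a group differed beyond counting error, with a mean chi-square of 12.4 to 59.2 per gene.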

Additional observations from a re-analysis of the deposited data

How the results depend on the processing

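Over 14 alternative settings no change of a named gene past the threshold reversed its sign. Scaling by library size alone moved the median change over all genes to 0.08 on the log2 scale (main setting -0.0052), called 998 genes lower (1516 in the main setting), made 70.5% of calls higher (53.5%), and called 5 members higher and 0 lower. The replicate block called 2988 genes higher and 3120 lower, among them 5 and 3 members, and kept all 4 called members. With no filter on low counts 2 members were lower, and without both replicate 1 libraries 0. Leaving out single libraries gave 1146 to 1980 genes higher and 804 to 1636 lower, and 2 to 4 members higher and 0 to 2 lower. With the longest transcripts the shares in hypoxia minus normoxia moved to -7.69 points for Ikzf1, 7.90 for Ikzf3, -0.937 for Runx1, 4.44 for Runx2 and -3.51 for Runx3, and with no division by length to -7.39 for Ikzf1 and 7.77 for Ikzf3. The cause of the other shifts was not tested. Depth limits the genes near 1 CPM, such as Hlf and Slc7a11, more than the 10 members.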

Other observations

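Of 12 other NK lineage factor genes 3 rose, 3 fell and 6 were not called. Zfp683, the Hobit gene of tissue-resident lymphocytes, rose to 3.69 ± 0.254 CPM in hypoxia, against 0.874 ± 0.0184 CPM in normoxia (SE 0.16 on a log2 fold change of 2.08, edgeR adjusted p = 3.0e-05). Tox and Tcf7 also rose. Myb, a progenitor factor gene, fell to 7.15 ± 0.337 CPM, against 22.3 ± 1.61 CPM (-1.64, SE 0.09, edgeR adjusted p = 8.1e-06), and Eomes and Zeb2 also fell. Id2, which innate lymphoid cells require, had 751 ± 51.0 CPM in hypoxia and 807 ± 34.9 CPM in normoxia and was not called (edgeR adjusted p = 0.41). The replicate block called 5 of the 12 higher, as did scaling by library size alone.

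Among 9895 genes averaging at least 5 CPM, those whose log2 CPM followed Foxo1 most closely over the 6 libraries were Cd68, Ccdc97 and Mplkip (Pearson's r of 0.998, 0.997 and 0.996). Those closest to Bach2 were Dcaf17, Rttn and H2-Q5 (0.994, 0.991 and 0.991). The libraries fall into 2 groups, so these values largely follow the groups and describe likeness only.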
